A study of Mus musculus with 65 samples.

Results

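The red cell membrane genes examined here are Gypc, Slc4a1, Ank1, Sptb, Epb41, Epb42, Rhag and Rhd, and the question was where TAL1 and CTCF sat around them. All peaks of every library that touched one of these 8 gene bodies, or the 50 kb on either side of it, were taken, and peaks of one factor that shared at least 1 bp were merged into a site. This gave 54 TAL1 sites of 13153 in the whole series and 73 CTCF sites of 95140. Of these, 47 TAL1 and 45 CTCF sites were called in 2 or more libraries. The genes were chosen by their known place in the red cell membrane and not by a readout, but with earlier results of these data known. The windows span 117 kb (Slc4a1) to 276 kb (Ank1) and, apart from that of Gypc, hold 1 to 4 other protein-coding genes each, so a site near a member is a position and not an assignment to it.

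Binding was measured by ChIP-seq, in which DNA crosslinked to a protein is pulled down with an antibody and sequenced, in 53 libraries. G1E-ER4+E2 cells are a mouse line of erythroid progenitors derived from embryonic stem cells. All libraries of the line share its lack of GATA1, a GATA1 fusion that responds to estradiol, and 24 hours of β-estradiol. TAL1 was mapped only in this line, in 19 libraries whose signal the authors judged as Pass (10), Low pass (4) or Fail (5), and CTCF in 23 libraries of the line (14 Pass, 2 Low pass, 7 Fail). CTCF was also mapped in 11 libraries of 8 populations sorted from the bone marrow of male C57BL/6 mice of 5 to 8 weeks. These were LSK (stem and early progenitor cells, 2 libraries), CMP, GMP and MEP (myeloid progenitors, 1 each), CFUE (1) and ERY (2) of the red cell lineage, and CFUMk (1) and iMk (2) of the megakaryocyte lineage. The CMP and GMP libraries were rated Low pass and the other 9 Pass. The assessment was made by eye on signal tracks of these same libraries, so a difference between Pass and Fail in called sites is not independent of it. Nothing says that libraries of a group came from separate cultures or animals, and p-values measure the spread between these libraries. Peak lists hold no expression values, so the identity of the sorted cells rests on their surface markers alone. Libraries of the line are named below by the average length of their sheared chromatin and their assessment. They also differed in cell number, which was low in the pilot series. The paper reports another fixative for several successful retrospective TAL1 experiments with longer chromatin. Neither cell number nor fixative was used here to group libraries, so libraries of like length may differ in them. The lists hold 193 to 36481 peaks, and the sequencing depth behind them is unknown.

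The red cell membrane is held by a skeleton of spectrin tetramers joined at actin junctions. Sptb encodes the β chain of spectrin, and Epb41 encodes protein 4.1, which tightens the spectrin-actin junction and holds it to glycophorin C, the product of Gypc. Ank1 encodes ankyrin, which ties spectrin to band 3, the anion exchanger encoded by Slc4a1, and Epb42 encodes protein 4.2, which steadies that link. Rhag and Rhd encode proteins of the Rh complex, which sits with band 3 in the membrane. TAL1 is a helix-loop-helix factor that binds E-boxes (CANNTG) as part of a complex with GATA1, often beside a GATA motif, and is found at enhancers and promoters active in red cell precursors. CTCF is a zinc finger protein that binds a long directional motif and marks insulators and the anchors of chromatin loops.

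The sequences below come from the TAL1 site with the highest median percentile of each member outside Gypc. They are shown because these sites carried the most TAL1 signal at their genes. The GATA motif nearest to the centre of the site is in capitals (AGATAA or TGATAA, either strand, read from the GRCm38 genome of RefSeq), or, where a site held it, the composite of part of an E-box and a GATA motif (CTGNNNNNNNNAGATAA), with CTG and AGATAA in capitals. A composite thus also counts as a GATA motif.
Sptb +36.6 kb, chr12:76673891-76673931, minus strand: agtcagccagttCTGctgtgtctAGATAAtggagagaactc
Epb42 +0.1 kb, chr2:121037075-121037115, plus strand: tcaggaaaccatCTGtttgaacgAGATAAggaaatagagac
Rhag -4.2 kb, chr17:40806783-40806823, minus strand: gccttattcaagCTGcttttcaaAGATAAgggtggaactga
Slc4a1 +2.4 kb, chr11:102363830-102363859, plus strand: gccagccaggacAGATAAggggcgagcggg
Ank1 +79.4 kb, chr8:23054192-23054221, minus strand: tctgggcaccatTGATAAgggcgtgcctga
Epb41 -1.9 kb, chr4:132077516-132077545, plus strand: cctgtgggcaacTGATAAactggggggggg
Rhd +4.9 kb, chr4:134869336-134869365, minus strand: caccgcagtttgTGATAAtcaccggttatt
Positions in kb are those of the centre of a site from the start of its gene, in the direction of transcription, with negative values upstream. Of the 22 TAL1 sites called in at least 50% of the Pass libraries, 20 held AGATAA or TGATAA and 3 the composite. Over all 4567 such sites of the genome 90.2% held a GATA motif and 14.5% the composite, against 63.7% and 1.64% of windows of the same lengths 10 kb away. The members' shares were thus close to those of TAL1 sites in general. The 2 sites without these letters were those at -9.2 kb of Slc4a1 and +3.2 kb of Epb41.

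For CTCF, the match to its motif (capitals) is shown at the site nearest to each gene start among those called in all 14 Pass libraries of the line, where one exists outside Gypc, and at the 2 sites that differed between the line and the primary cells. The motif matrix, 19 bp wide, was started from the known CTCF consensus and refined on the strongest peaks of an LSK library that lie outside the members' windows, and both strands were searched.
Slc4a1 -45.7 kb, chr11:102411900-102411934, minus strand: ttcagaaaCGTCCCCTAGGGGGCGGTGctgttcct
Ank1 +53.4 kb, chr8:23028068-23028102, plus strand: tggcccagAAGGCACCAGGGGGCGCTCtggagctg
Epb41 -13.8 kb, chr4:132089075-132089109, plus strand: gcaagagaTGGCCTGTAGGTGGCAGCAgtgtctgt
Rhd +15.3 kb, chr4:134880244-134880278, plus strand: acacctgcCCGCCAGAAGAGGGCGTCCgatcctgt
Rhd +27.8 kb (line and not primary cells), chr4:134892517-134892551, plus strand: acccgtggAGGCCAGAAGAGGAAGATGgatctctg
Ank1 +174.9 kb (primary cells and not line), chr8:23149700-23149734, plus strand: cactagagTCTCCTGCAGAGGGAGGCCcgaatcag
All 24 CTCF sites called in at least 50% of the Pass libraries of the line held a match at a p of 0.0001 per position. Over all 13938 such sites 95.6% did, against 25.4% of windows 10 kb away. In 12 of the 24 the motif ran in the direction of the gene and in 12 against it.

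None of the 22 TAL1 sites called in at least 50% of the Pass libraries overlapped a CTCF site called that often, where 5.26% of all such TAL1 sites did, a share that gives about 1 site in 22, and of all 54 TAL1 sites 4 overlapped one. The closest pair lay at Epb41, where 1149 bp separated the TAL1 site at -1.9 kb from the CTCF site at -4.5 kb. Of the 22 TAL1 sites, 16 touched the body of the member, 7 were at a promoter (within 1000 bp of a transcript start of any gene), 3 in an exon, 11 in an intron and 1 between genes. Of the 24 CTCF sites, 9 touched the body of the member, 3 were at a promoter, 7 in an exon, 7 in an intron and 7 between genes. Over all such sites of the genome 18.6% of TAL1 sites lay at promoters, 13.1% in exons, 44.9% in introns and 23.4% between genes. For CTCF these shares were 16.1%, 17.4%, 30.7% and 35.8%. The members' windows are built around gene bodies, which favours positions within genes.

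**Figure D1:**
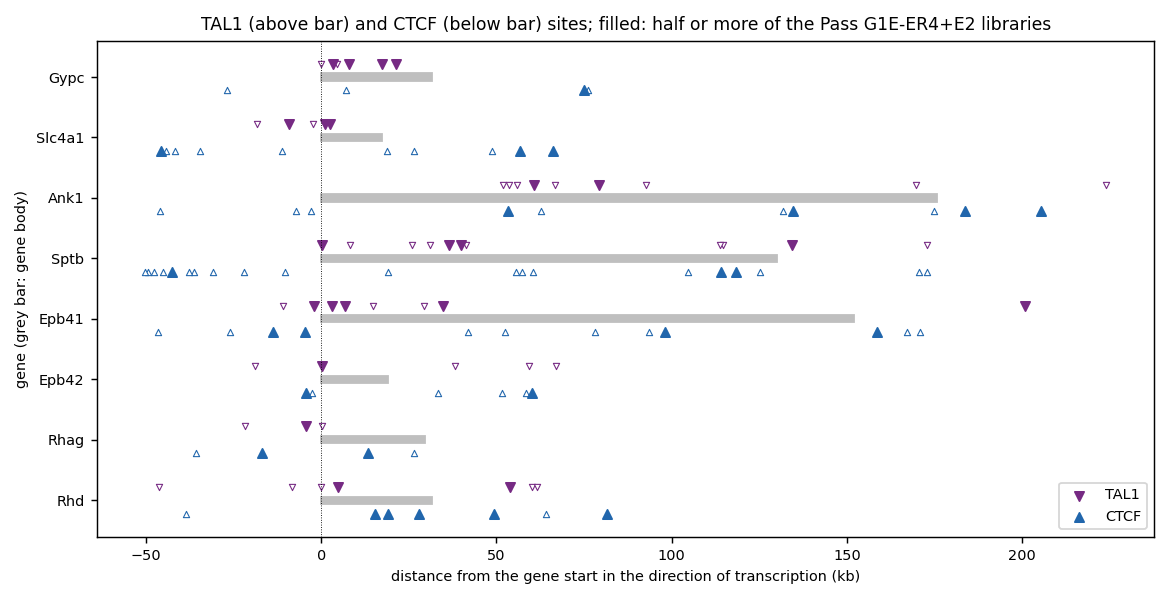
Sites of TAL1 (triangles above the bar) and CTCF (triangles below it) at each member, by distance from the gene start in kb, with the gene body as a grey bar. Filled symbols are the 22 TAL1 and 24 CTCF sites called in at least 50% of the Pass G1E-ER4+E2 libraries; at Gypc all 4 filled TAL1 sites lie in the gene and the one filled CTCF site at +74.9 kb.

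Each of the 8 members had a TAL1 site called in all 10 Pass libraries within its window, 15 such sites in all. Of 21938 protein-coding genes 17.3% had one, in windows with a median of 117 kb against 132 kb at the members. Signal is given as the percentile of a peak's fold enrichment among all peaks of its library, 100 being the strongest. At 7 members, all but Epb42, such a site reached a median percentile of 90 or more, as at 5.27% of protein-coding genes. Of the 15 sites 11 reached 90, against 23.4% of the 1877 sites that all Pass libraries called in the genome. The median over the 15 was 94.8 and over the 1877 it was 78.6. The members were picked as known red cell genes, and the share is a description of them.

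At the skeleton gene Sptb (12:76580488-76710547, minus strand) the strongest TAL1 signal was inside the gene and away from its start. A pair of intronic sites at +36.6 and +39.8 kb was called in all 10 Pass and all 4 Low pass libraries. The first ran from 90.7 to 98.0 in percentile over the Pass libraries, with a median of 96.6, and the second from 85.3 to 96.2, with a median of 94.3. In the Low pass libraries of 176, 260, 263 and 289 bp the site at +36.6 kb stood at 82.7, 88.1, 79.7 and 87.8, all below the lowest Pass value. The promoter site at +0.2 kb was called in 8 Pass libraries and 2 Low pass libraries at a median percentile of 69.9. An exonic site of the neighbouring gene Plekhg3, at +134.3 kb, was called in 9 Pass libraries at a median of 59.8.

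Epb41 (4:131923413-132075321, minus strand) had 5 TAL1 sites called in at least 50% of the Pass libraries, the most of any member. The strongest, at -1.9 kb in an exon of Gm10300, was called in all 10 Pass and 4 Low pass libraries and in the Fail library of 166 bp. Its percentile ran from 88.4 to 97.7 over the Pass libraries, with a median of 93.3. The site at +3.2 kb, at a transcript start of the gene itself, was also called in all 10 Pass and 4 Low pass libraries, but its percentile fell as low as 16.2, around a median of 68.6, the widest range among the 15 sites. Sites at +34.9 kb (9 Pass libraries, median 69.2) and +6.7 kb (7 Pass libraries, median 52.6) lay in introns. One at +200.8 kb, at the promoter of Srsf4, was called in 5 Pass libraries at a median of 42.1.

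Ank1 (8:22974844-23150497, plus strand) had no TAL1 site within 50 kb of the start of its longest annotated form. Both sites that all Pass libraries called lay well inside the gene. The one at +60.6 kb sits 0.2 kb from the start of a shorter Ank1 transcript and had a median percentile of 94.8 (88.0 to 98.0). The one at +79.4 kb is intronic, 4.0 kb before the nearest Ank1 transcript start, with a median of 95.5 (91.3 to 97.7). All 4 Low pass libraries called both, and the site at +60.6 kb was also called in the Fail library of 183 bp, at a percentile of 95.9 among its 352 peaks. In the Low pass libraries of 263 and 289 bp that site stood at only 37.5 and 42.0. The remaining 7 TAL1 sites of Ank1 were called in 1 to 4 Pass libraries each.

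Epb42 (2:121017891-121037072, minus strand) differed in that its single recurrent TAL1 site was at its own promoter, at +0.1 kb. All 10 Pass libraries called it, at percentiles of 76.9 to 93.9 with a median of 88.3. The 4 Low pass libraries called it at 70.7 to 75.1, below every Pass value, and no Fail library did. The composite motif printed above lies in this site, just before the gene start.

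At Slc4a1 (11:102348824-102366203, minus strand) 2 TAL1 sites of near equal rank stood on either side of the start. The site at +2.4 kb, which reaches to within 1000 bp of a transcript start of the gene, ran from 95.3 to 99.5 over the Pass libraries (median 97.9). The site at -9.2 kb, in an exon of the noncoding gene Bloodlinc, ran from 96.0 to 99.4 (median 97.8). All 4 Low pass libraries called both. Only the upstream site was called in Fail libraries, those of 295 bp (percentile 73.7) and 183 bp (67.8). A weaker promoter site at +1.0 kb was called in 5 Pass libraries at a median of 52.2.

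Gypc (18:32528322-32560034, minus strand) held the strongest TAL1 site of the 54. At +17.5 kb, in an intron, it ran from 99.7 to 100.0 over the 10 Pass libraries, with fold enrichments of 56.3 to 162 and a median of 80.2. The Low pass libraries of 176, 260, 263 and 289 bp had it at 99.7, 99.9, 99.8 and 99.9, within the range of the Pass libraries. It was the only member site called in 18 of the 19 TAL1 libraries, and 9 sites of the genome were called in 18 or more. The Fail libraries of 166, 183, 273 and 295 bp had it at 45.9, 96.9, 31.9 and 91.1, and the one without it, of 297 bp, holds 204 peaks and none at any member. A neighbour at +21.3 kb, also intronic, had a median of 97.0 (94.9 to 98.7). Intronic sites at +7.9 and +3.2 kb were called in all 10 Pass libraries at lower medians of 64.5 and 62.1. The Gypc promoter itself was called in 3 Pass libraries only, at a median of 27.4.

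Each Rh gene had 1 TAL1 site called in all Pass libraries. That of Rhag (17:40811126-40840754, plus strand) lay at -4.2 kb, in an intron of Crisp2, with a median percentile of 95.0 (87.0 to 97.4). It was called in all 4 Low pass libraries and in the Fail libraries of 273 and 295 bp. A promoter site at +0.3 kb, which also holds the composite motif, was called in 4 Pass libraries at a median of 48.8. That of Rhd (4:134864536-134896172, plus strand) lay in an intron at +4.9 kb with a median of 93.3 (85.6 to 96.1), and in all 4 Low pass libraries and the Fail library of 183 bp. A site between genes at +53.8 kb was called in 6 Pass libraries at a median of 39.0.

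**Figure D2:**
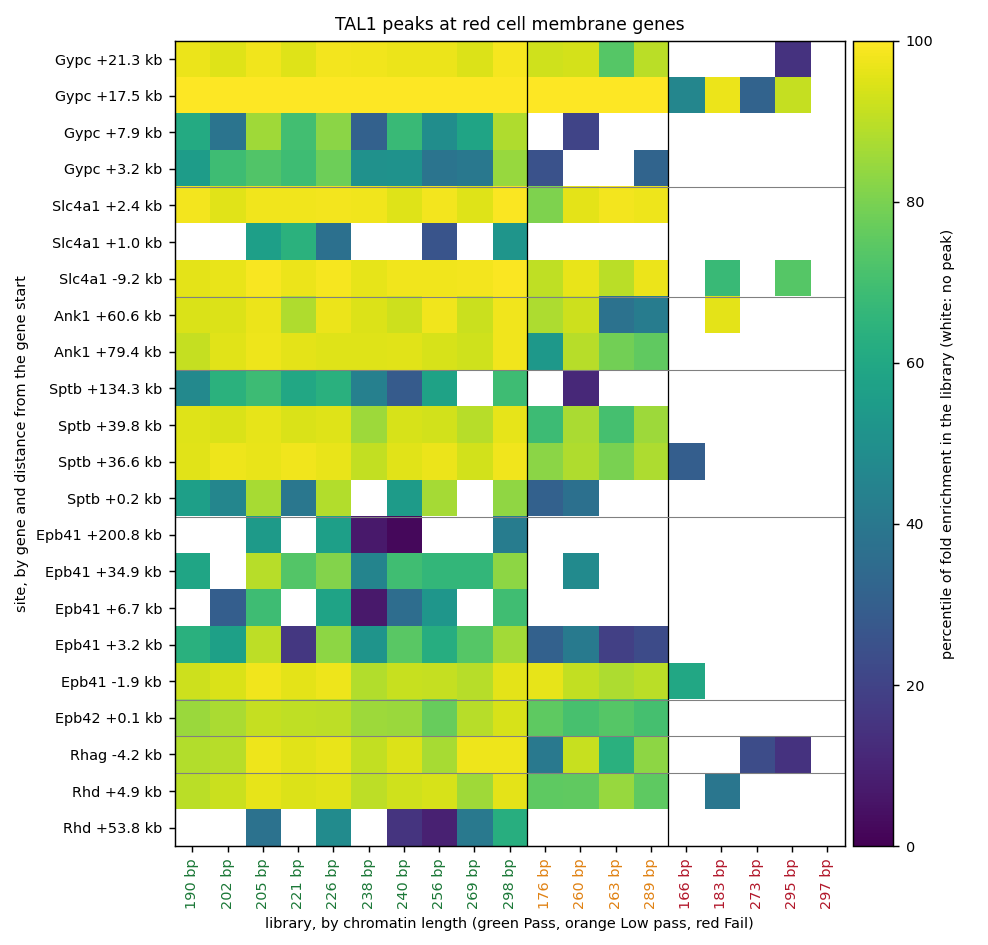
Percentile of fold enrichment (colour) at the 22 TAL1 sites called in at least 50% of the Pass libraries, in each of the 19 libraries ordered by assessment and chromatin length; white means no peak. The row of Gypc +17.5 kb is filled in 18 libraries, and the 297 bp Fail library is empty.

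Most of the strong member sites were still called in Low pass libraries. Of the 15 sites called in all Pass libraries, 13 were also called in all 4 Low pass libraries, where 44.3% of all 1877 such sites were. The 2 exceptions were Gypc +7.9 and +3.2 kb, called in 1 and 2 Low pass libraries. Fisher's exact test compared calls in Pass against Low pass or Fail, adjusted over all 8725 TAL1 sites called in 2 or more libraries. It passed at 11 of the 47 member sites tested (23.4%), all higher in Pass. Over all sites 37.4% passed in that direction and 0.0115% in the other. The smallest values were at Gypc +7.9 kb (10 of 10 Pass, 1 of 9 others, Fisher's exact test, adjusted p = 0.00196) and Gypc +3.2 kb (10 of 10, 2 of 9, adjusted p = 0.00564). At Gypc +17.5 kb, calls in 10 of 10 and 8 of 9 libraries did not pass (adjusted p = 0.478). The count of 11 fell to between 5 and 7 without any one Pass library and to 6 without any one Fail library. It was 11 or 12 without a Low pass library. Within the study series or within the retrospective series alone it was 0. At most 10 libraries remain there, and 4 member sites reached an unadjusted p of 0.05. No site of the genome passed in either series (Fisher's exact test, smallest adjusted p 0.0828 and 0.0669), so these counts of 0 say nothing of the members.

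The number of member sites with a TAL1 peak followed the assessment. It was 27.9 ± 12.4 (SD, n = 10) in Pass libraries, with a lowest value of 17, a median of 22.5 and a highest of 49. It was 18, 15, 14 and 13 in the Low pass libraries of 260, 176, 289 and 263 bp, and 4, 3, 4, 2 and 0 in the Fail libraries of 295, 166, 183, 273 and 297 bp. Only the Low pass library of 260 bp reached the range of the Pass libraries, and no Fail library did. Pass exceeded Low pass and Fail together by 19.8 sites (two-sided exact permutation test, p = 8.66e-05, adjusted p = 0.000130 over 3 tests). The difference was 18.2 within the study series (exact permutation p = 0.0333) and 20.9 within the retrospective series (p = 0.00794), and with libraries permuted only within their series it was 19.5 (exact permutation p = 0.000151). It was 20.1 without the Pass library of 221 bp, whose antibody label names CTCF although its title names TAL1. Every Pass and Low pass library had a TAL1 peak at all 8 members, and the Fail libraries at 0 to 4 of them. Peak totals moved with the counts: Pass libraries hold 2670 to 9763 peaks, Low pass 1212 to 2751 and Fail 204 to 606, and the 3 Pass libraries with over 40 member sites, of 205, 226 and 298 bp, are those with the most peaks. Per 1000 peaks the direction turned: Pass libraries had 4.83 to 7.12 member sites, Low pass libraries 6.54 to 10.7, and the Fail libraries of 295, 166, 183, 273 and 297 bp 13.7, 4.95, 11.4, 3.71 and 0. The mean was 5.41 in Pass and 7.62 in the others, a difference of -2.22 that did not pass (exact permutation p = 0.124).

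**Figure D3:**
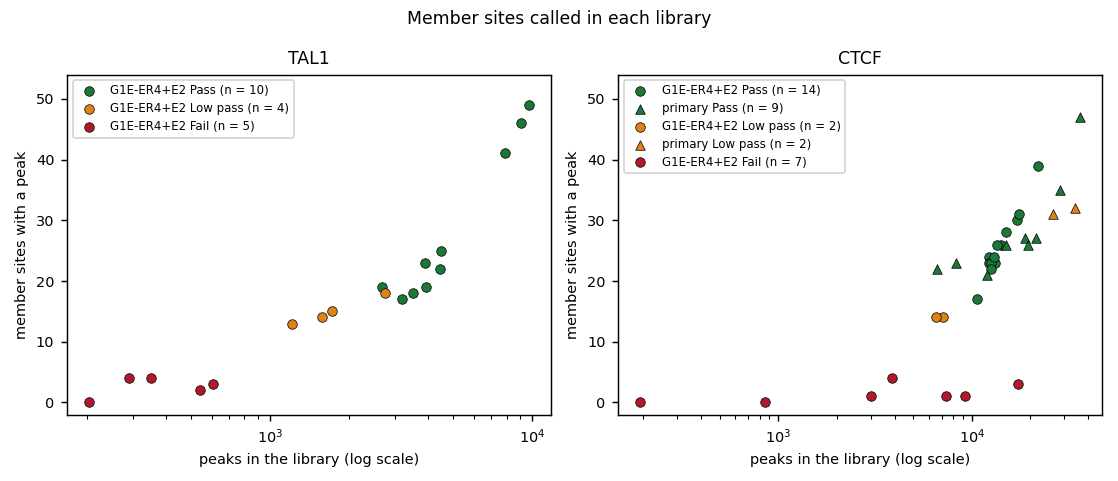
Member sites with a peak in each library (vertical axis) against the number of peaks in that library (log axis), for TAL1 and CTCF, coloured by assessment; circles are G1E-ER4+E2 and triangles primary cells. TAL1 Pass libraries lie between 17 and 49 sites, and the CTCF Fail library with 17343 peaks has 3.

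For CTCF in the line, Pass libraries had 25.6 ± 5.21 member sites (SD, n = 14; lowest 17, median 24.0, highest 39), both Low pass libraries had 14, and the 7 Fail libraries had 0 to 4, so the groups did not overlap. The difference of Pass from the other 9 was 21.4 sites (two-sided exact permutation test, p = 1.22e-06, which is the smallest this design can give, adjusted p = 3.66e-06 over 3 tests). Within the retrospective series it was 28.9 (exact permutation p = 0.0179). The study series has 1 library that is not Pass, so no p under 0.0909 was possible there, and the difference was 9.90 with both libraries of 248 bp, 1 of which is a pilot library, and 10.0 without them. With libraries permuted only within their series the difference was 22.2 (exact permutation p = 0.000406, the smallest possible). One Fail library of the low-input pilot series, with no chromatin length detected, holds 17343 peaks, more than 12 of the 14 Pass libraries. It called 3 member sites. That is 0.173 member sites per 1000 peaks, where Pass libraries had 1.60 to 1.94 and the Low pass libraries 1.98 and 2.14. On this scale the mean was 1.80 in Pass and 0.655 in Low pass and Fail together (exact permutation p = 0.000164).

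At single sites, Fisher's exact test passed at 24 of 36 member sites tested (66.7%), all higher in Pass. Over 26049 CTCF sites 51.2% passed in that direction and 0.188% in the other. Of the 14 member sites that all Pass libraries called, 11 were called in both Low pass libraries, as were 60.6% of all 5676 such sites, and only Epb41 +97.9 kb was called in a Fail library, that of 194 bp. That site, in an intron of Epb41, had a percentile of 69.8 to 98.7 over the Pass libraries with a median of 93.6. Ank1 +134.6 kb, in an exon, was called in all 14 Pass libraries and in no Low pass or Fail library (Fisher's exact test, adjusted p = 5.82e-05). Its median percentile in the Pass libraries was 44.9.

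CTCF sites were spread unevenly over the members. Of the protein-coding genes, 45.0% had a site called in all 14 Pass libraries within the window. Rhd had 5, Slc4a1 and Ank1 3 each, Epb41 2 and Gypc 1, while Sptb, Epb42 and Rhag had none. Sptb had the most CTCF sites of all, 20, but 14 of them were called in a single library. Some of the 14 lay wholly in masked repeats and held no CTCF match. Such were +57.3 and -36.1 kb, called in CMP, and +55.7 and -30.9 kb, called in GMP, both Low pass libraries. Others, such as +104.5 and -22.2 kb, called in CFUMk, held a match. The 3 recurrent sites of Sptb were in an intron at +118.2 kb (13 of 14 Pass), in an exon at +113.9 kb (10 of 14) and upstream at -42.5 kb (11 of 14). The recurrent sites of Epb42 were at +60.1 kb, at the promoters of Tmem62 and Gm44325 (13 of 14), and at -4.2 kb (10 of 14), and those of Rhag at +13.3 kb in an intron (13 of 14) and at -17.0 kb at a promoter of Crisp2 (8 of 14). Slc4a1 had no recurrent CTCF site in its body and lay between sites at -45.7 kb on one side and +56.8 and +66.2 kb on the other. The one at +56.8 kb, in an exon of Ubtf, had a median of 91.2 in the line and 97.8 in primary cells. The strongest CTCF signal at Ank1 in the line was at +53.4 kb in an intron, with a median of 96.8 (87.9 to 99.0).

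**Figure D4:**
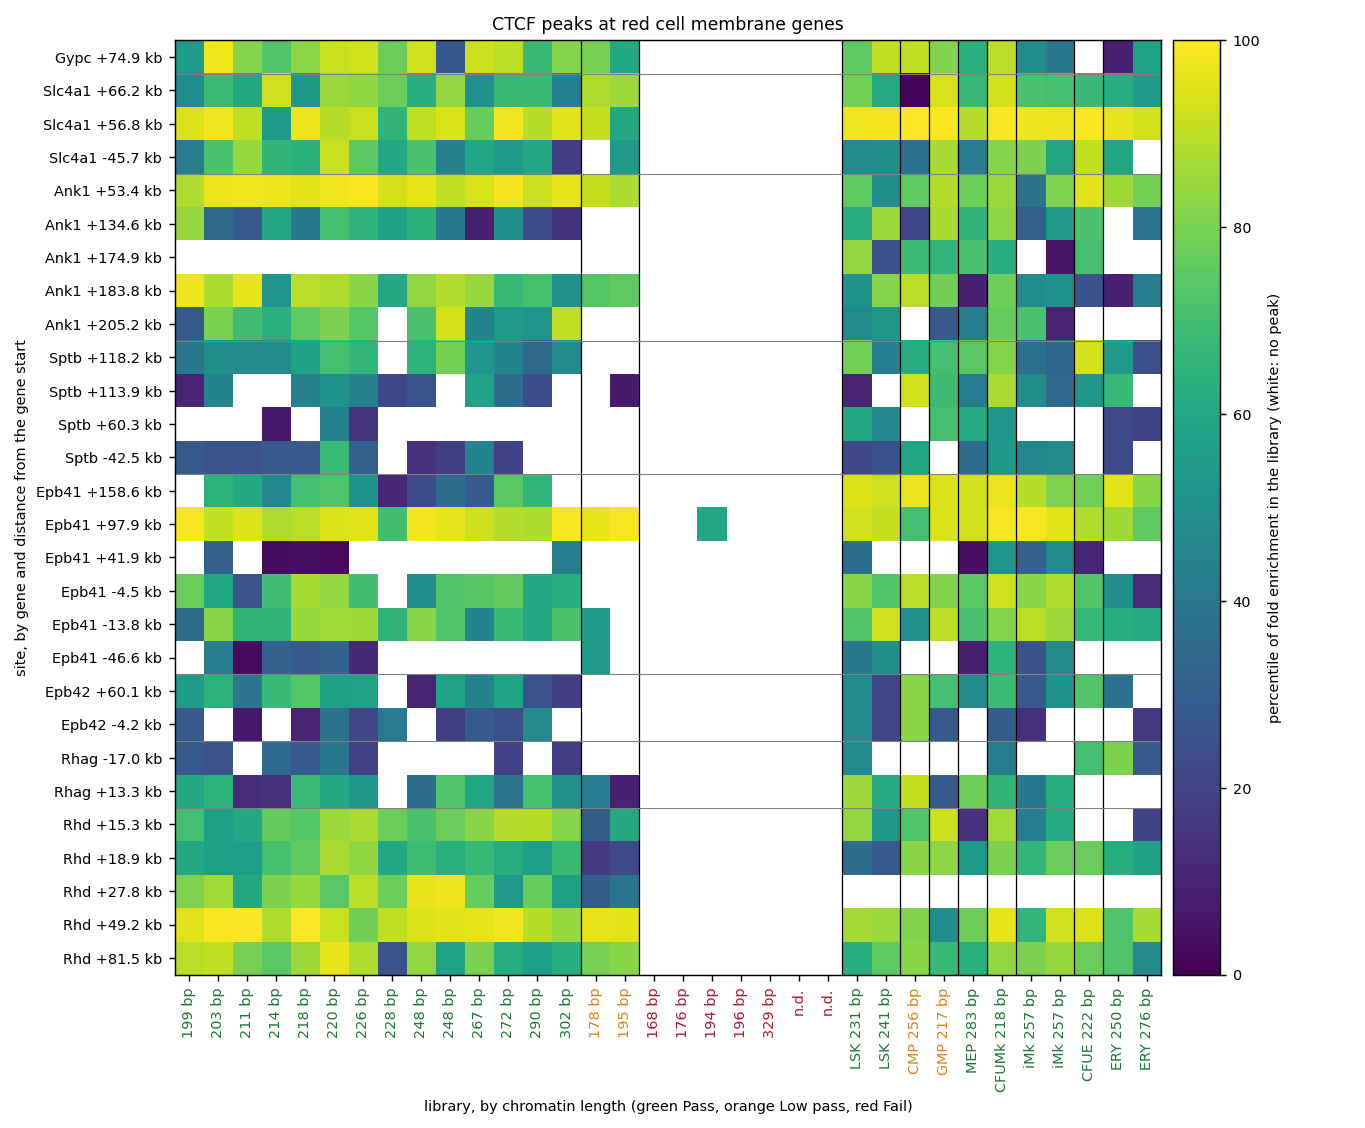
Percentile of fold enrichment (colour) at 28 CTCF sites of the members in each of the 34 libraries, by assessment and chromatin length for the line and then by cell type; white means no peak and n.d. a chromatin length that was not detected. The row of Rhd +27.8 kb is filled in all 14 Pass libraries and white in all primary cells, and that of Ank1 +174.9 kb is white in all libraries of the line and filled in 8 of the 11 primary libraries.

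Of the 73 member sites, 37 were called in at least 1 Pass library of the line and 1 primary library. Over all 95140 CTCF sites 24.1% were. Another 6 member sites were called in a Pass library of the line and in no primary library. Of the 14 sites called in all Pass libraries of the line, 9 were called in all 11 primary libraries, and in the genome 43.9% of 5676 such sites were. The 9 were at Slc4a1 (+66.2 and +56.8 kb), Ank1 (+53.4 and +183.8 kb), Epb41 (+97.9 and -13.8 kb) and Rhd (+18.9, +49.2 and +81.5 kb). Conversely, 25 member sites (34.2%) were called in primary cells and in no Pass library of the line, 21 of them in a single primary library. Of all 95140 CTCF sites 42.3% showed this pattern, and 71.5% of those were called in a single primary library. Another 5 were called only in Fail libraries.

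Fisher's exact test of the 11 primary against the 14 Pass libraries of the line passed at 2 of 43 member sites tested, with 1 in each direction. Over 35259 sites 7.53% passed higher in primary cells and 0.902% higher in the line. The first was Rhd +27.8 kb, which covers an exon of Rhd: 14 of 14 Pass libraries and both Low pass libraries of the line called it, and none of the 11 primary libraries (Fisher's exact test, p = 2.24e-07, adjusted p = 8.24e-05). Its percentile in the Pass libraries ran from 54.6 to 97.5 with a median of 79.0, and in the Low pass libraries of 178 and 195 bp it was 29.6 and 38.4. The other 4 all-Pass sites of Rhd were called in 9 or more of the 11 primary libraries. A call in all 14 and in 0 of 11 was found at 9 CTCF sites of the genome (0.0255%). The second was Ank1 +174.9 kb, at a promoter of Gm15816 by the end of Ank1: no library of the line called it, and 8 of 11 primary libraries did (Fisher's exact test, adjusted p = 0.00473). It was called in both LSK libraries, CMP, GMP, MEP, CFUE, CFUMk and 1 of 2 iMk libraries, at percentiles of 5.29 to 83.9 with a median of 67.3, and in neither ERY library. With peaks of a −log10 p of 10 or more only, the Ank1 site no longer passed and that of Rhd still did. By the paper's methods the primary cells were also fixed for longer than the line, and the paper presents them as low-input samples. For most of the line, peaks were called against a composite input. The lists of the primary cells held a median of 19612 peaks, against 13164 in the Pass libraries of the line. The part of these differences in the calls was not tested.

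Within the primary cells, the red cell libraries had the fewest member sites, 21 in CFUE and 23 and 22 in ERY. The other 8 had 26 to 47. The mean was 22.0 (n = 3) against 31.4 ± 7.11 (SD, n = 8), a difference of -9.38 (two-sided exact permutation test, p = 0.0485, adjusted p = 0.0485 over 3 tests, where the smallest possible p is 0.00606). The red cell libraries also hold the fewest peaks, 6629 to 11990 against 15002 to 36481. Per 1000 peaks the order turned, with 1.75 in CFUE and 2.78 and 3.32 in ERY, against 0.930 to 1.73 in the others. The groups did not overlap (difference 1.32, exact permutation p = 0.00606), though CFUE and MEP, at 1.75 and 1.73, were close. MEP has the shortest list of the others, 15002 peaks. In the line the Low pass lists, of 7078 and 6542 peaks, had 1.98 and 2.14, above the Pass lists, while Fail lists had 0 to 1.03. The part of list length in the ratio was not tested, and the ratio was not taken for other genes. The call on the number of sites was also lost on leaving out any one of 8 of the 11 libraries, those other than MEP, CFUMk and 1 iMk library.

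No member site passed Fisher's exact test between CFUE and ERY and the other primary cells. With 3 against 8 libraries the smallest p was 0.00606, and the smallest adjusted p over all 32693 sites was 0.0674. At an unadjusted p of 0.05 there were 3 of 39 member sites, against 16.1% of all sites tested: Rhag +13.3 kb, Slc4a1 -11.1 kb and Ank1 +205.2 kb. The intronic Rhag site was called in all 8 other primary libraries, at percentiles of 28.5 to 91.3, and in none of the 3 red cell libraries (Fisher's exact test, unadjusted p = 0.00606), while 13 of 14 Pass libraries of the erythroid line called it. This pattern was common, at 8.98% of sites. The reverse, 3 of 3 and 0 of 8, was found at 0.0122% of sites and at no member site.

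Closest to that reverse pattern were 2 member sites, singled out after their values were seen. Slc4a1 -11.1 kb, at a promoter of Bloodlinc and 862 bp from the TAL1 site at -9.2 kb, was called in CFUE, both ERY libraries and CFUMk, and in 6 of 14 Pass libraries of the line. Its percentiles were low: 0.801 in CFUE, 59.1 and 33.2 in ERY, 10.2 in CFUMk and 3.54 to 40.9 in the line. Rhag -17.0 kb was called in CFUE (70.2), both ERY libraries (80.2 and 28.9), 1 of 2 LSK libraries (47.8) and CFUMk (42.0), and in 8 of 14 Pass libraries of the line. Sites called in all 3 red cell libraries and in at most 2 of the 8 others made up 0.0581% of the 32693 tested, 19 in number, and these are 2 of the 19. The LSK and CFUMk libraries that called them hold 28476 and 36481 peaks, and CFUMk has the most of all primary libraries.

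A list of 22 other genes, drawn up for the red cell membrane though it includes the mitochondrial Tmem14c, was looked at in the same way. A TAL1 site called in all 10 Pass libraries was within the window of 15 of the 22, against 8 of 8 members, and at a median percentile of 90 or more it was at 7 of 22, against 7 of 8. Among them were Cd47 (a surface protein of the Rh complex), Bsg (basigin), Kcnn4 (a calcium-gated potassium channel), Abcb6 (a porphyrin transporter) and Tmem14c (a mitochondrial carrier of heme synthesis). A CTCF site called in all 14 Pass libraries was at 14 of 22, against 5 of 8. The median window was 122 kb for the list and 132 kb for the members.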

How the data were processed

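The authors mapped reads to mm10 (GRCm38) with Bowtie (0.12.8 in the methods, 1.0.0 in the submitters' processing notes, which also name bcl2fastq 1.8.4), removed mitochondrial, unplaced and unmapped reads, and called peaks per library with MACS 1.3.7.1, for most of the line against a composite input. The p cutoff and treatment of duplicate reads are not given in the sources used here. The deposited lists give for each peak a fold enrichment (a ratio to background), a −log10 p, never under 5.00, and an FDR as a fraction by the authors, which was not used. Fold enrichments depend on depth, which is unknown, and were ranked within a library. No read counts were used, and 12 input samples were not analysed here.

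Peaks of a factor were merged with pandas 2.3.3 in Python and placed on GENCODE M21, promoters being within 1000 bp of a transcript start. No 2 lists held identical peaks. Libraries were grouped by the labels' assessment and cell type; study, retrospective and pilot membership follows the paper, except that 1 of the 2 CTCF libraries of 248 bp is a pilot library and the sources used here do not say which, so both were kept with the study series. Counts per library were compared by exact permutation tests and calls per site by Fisher's exact test (scipy 1.17.1) with Benjamini-Hochberg adjustment over all sites called in at least 2 libraries of the comparison, at 0.05. The CTCF matrix was fitted over 10 rounds to 2000 peaks (200 bp around each centre), of which 1532 then held a match. All 8 members are described, with every TAL1 site called in at least 50% of Pass libraries, and every CTCF site called in at least 50% of Pass line or of primary libraries or that passed Fisher's exact test. The tests were checked on simulated calls. Alternatives were a −log10 p of 10 or more, peaks that cover at least 50% of a site (chosen after seeing the data), windows of 10 kb or gene bodies alone, no filter on libraries, other groupings of Low pass, single series and leaving out libraries, and, chosen after seeing the data, member sites per 1000 peaks for the line, permutation within series and the study series without the 248 bp libraries. The members and lists were chosen with earlier results of these data known. Some genes of the wider membrane list are not reported here by name.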

Additional observations from a re-analysis of the deposited data

Results flagged for a closer look

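Of 5 groups of 4 to 10 libraries tested for a library far from the rest, 1 held one, where chance gives about 1 in 20 groups. Among the primary cells other than CFUE and ERY, the CFUMk library of 218 bp called 47 member sites, and the next highest of the 8 libraries called 35. Its gap is 0.571 of the range of the group, over the limit for a group of 8. It also holds the most peaks of the group, 36481, and per 1000 peaks its 1.29 member sites lie within the group.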

How the results depend on the processing

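The difference in TAL1 member sites per library kept its direction and passed in 29 of 30 alternatives, but turned to -2.22 per 1000 peaks (p = 0.124, exact permutation). That of CTCF in the line did so in 34 of 36, the exceptions being the study series with and without the 248 bp libraries, where it was 9.90 and 10.0 and could not pass. For CFUE and ERY against the other primary cells, the difference no longer passed with peaks that cover 50% of a site (-11.2) and without the Low pass primary libraries (-9.33), ranged from -10.1 to -7.14 with 1 library left out, and turned to 1.32 per 1000 peaks. The count of TAL1 member sites that passed by assessment was 11. It was 17 with a −log10 p of 10 or more, 19 with peaks that cover 50% of a site and 17 with Low pass grouped with Pass. It was 6 without the library with a CTCF antibody label and 5 to 12 with 1 library left out. Within either series it was 0, but no site of the genome passed there, so that 0 says nothing of the members. The count for CTCF in the line was 24. It was 13 with a window of 10 kb and 9 in gene bodies, which leave fewer sites. It was 13 in the retrospective series and 24 with any 1 library left out. In the study series, with or without the 248 bp libraries, only 1 library was not Pass, so no site could pass. The count of sites that differ between primary cells and the line, 2, was 1 with a −log10 p of 10 or more and 2 to 3 with 1 library left out. That between CFUE and ERY and the others was 0 in all 17 alternatives, where the smallest adjusted p over all sites was 0.0674 to 0.224, so these zeros say nothing of stability. Where no construction is named, the cause was not tested. An overlap of 50% of the shorter of peak and site, as first planned, changes no value, since a peak always lies inside its merged site; that of 50% of the site was chosen after seeing the data. Depth is unknown, so a site without a peak was not detected at the authors' cutoff and is not shown to be unbound. No paired analysis was made, because the labels and text used here do not say which library came from which batch of cells. Permutation within series stands in its place (19.5 for TAL1 and 22.2 for CTCF). It was chosen after seeing the data, like the per 1000 peaks values for the line.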

Other observations

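There were 19 CTCF sites called in all 3 CFUE and ERY libraries and in at most 2 of the 8 other primary libraries. Besides Slc4a1 and Crisp2, the genes they lie in or nearest to are Smurf2, Plek2, Slitrk1, Rgs22, Klf10, Pacsin2, Cbwd1, Glt6d1, Vmn1r3, Olfr270, A430005L14Rik, Tmem88b, Ptpn13, Dusp8, Adam29, Arhgap10 and Gramd1b. Slitrk1, Adam29, Ptpn13 and A430005L14Rik are 476, 357, 78.7 and 62.8 kb from their sites. Of these 19, 12 were called in no Pass library of the line, and the sites at Slc4a1 and Crisp2 were called in 6 and 8 of them. The 9 CTCF sites called in all 14 Pass libraries of the line and in no primary library lie in or nearest to Rhd, Oscp1, Rnf212, Kpna7, Peg3, Garem1, Rnft1, Aard and Cdh9. These patterns were chosen after the values were seen and were not tested.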
